A study of Mus musculus with 94 samples.

Results

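The untreated 4T1 tumors were the 20 control tumors among the 94 tumors sequenced, chosen by the control label of each sample and by nothing measured. 4T1 is a mammary carcinoma line of BALB/c mice that lacks estrogen receptor and spreads from the primary tumor to distant organs, and it is used as a model of triple-negative breast cancer. Female BALB/c mice aged 8 weeks received 200000 4T1 cells under the skin of the right hind limb, and the mice entered the study when tumors measured 100 to 200 mm3. Control mice received neither x-rays nor indomethacin (INDO, an inhibitor of both cyclooxygenases), while the other 3 groups received 6 Gy, INDO or both. Control tumors were taken 1, 3, 7, 15 and 23 days after the treated mice were irradiated, 4 on day 1, 5 on day 3, 5 on day 7, 3 on day 15 and 3 on day 23. Each tumor was 1 library, so that no mouse was followed over time, and all tumors came from 1 cell line grown under the skin and not in the mammary fat pad. The comparisons between days show how the transcripts of proliferation, oxygen shortage, stroma and immune cells differed between days without treatment.

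A growing tumor outpaces its vessels. Low oxygen stabilizes hypoxia-inducible factors, which raise transcription of genes for glycolysis, acid export and vessel growth. Tumors also draw in fibroblasts, macrophages and neutrophils, and 4T1 tumors are known for secreting granulocyte colony-stimulating factor and for a strong accumulation of neutrophils in their hosts. CD8+ T cells and natural killer (NK) cells kill tumor cells with perforin and granzymes, and the interferon gamma they release raises antigen presentation in the tumor and its stroma. In bulk RNA, fewer cells of a type and less RNA per cell cannot be told apart, and every result below holds for the whole piece of tissue.

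The 20 libraries held 29355714 to 96476191 counts (median 73437319). Levels are CPM, counts scaled to a common library size with TMM factors, and a gene is called where the edgeR quasi-likelihood test gave a Benjamini-Hochberg adjusted p under 0.05 over the 23203 genes tested. The epithelial markers of 4T1 cells were read in every tumor: Epcam ranged from 193 to 781 CPM, Krt8 from 568 to 1270 CPM and Krt18 from 628 to 1780 CPM. The control day 15 replicate 1 tumor stood apart, with 495 CPM of olfactory and vomeronasal receptor transcripts against 40.7 to 120 CPM in the other 19, and it was also the shallowest library. Results on day 15 that rest on it are given with and without it. RNA of tissue around the tumor was uneven. Skeletal muscle genes summed to 1890 to 7800 CPM on day 1, 1460 to 19900 CPM on day 3, 34.4 to 11200 CPM on day 7, 43 to 54.9 CPM on day 15 and 23.2 to 2780 CPM on day 23. Skin genes summed to 134 to 1010 CPM on day 1 and to at most 271 CPM from day 7 on, and fat genes to 77.3 to 214 CPM on day 1 and 16.2 to 44.1 CPM on days 15 and 23. The labels give no date of harvest, extraction or sequencing, so that the day and any such batch cannot be told apart. Nothing in them says more of the replicates than that they are separate tumors, and the p-values measure the spread between these tumors.

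The tumors of day 23 differed most from those of day 1. Between these days 3315 genes were higher and 3265 lower, 28.4% of all genes tested. Day 15 against day 1 gave 1927 higher and 1992 lower (16.9%, or 8.3% and 8.59%), and day 7 against day 1 gave 1688 higher and 1015 lower (11.6%). Between neighbouring days the numbers were uneven. A single gene was called between days 3 and 1 and between days 7 and 3 (0.00431% each), Tmprss6 in both, although 2491 and 2436 genes had an unadjusted p under 0.05, and DESeq2 called 338 and 199. Between days 15 and 7, 527 genes were higher and 1565 lower (9.02%), and between days 23 and 15, 19 were higher and 6 lower (0.108%, or 0.0819% and 0.0259%), with 3468 genes at an unadjusted p under 0.05 and 638 calls by DESeq2. Across the 5 days together 6282 genes differed (27.1%). Of these, 2066 had their highest mean on day 23 (32.9%, against 23.7% of all genes tested) and 1919 on day 1 (30.5% against 25.7%). Day 7 held 1366 (21.7% against 18.6%), day 15 held 702 (11.2% against 23%) and day 3 held 229 (3.65% against 9.03%). Several of these counts turned on single tumors. Without day 23 replicate 1, day 23 against day 1 gave 3881 calls. Day 15 against day 1 gave 2424 without day 15 replicate 2 and 2524 without replicate 3. For day 7 against day 1, leaving out day 1 replicate 2, 3 or 4 gave 1358, 1375 and 1254, and leaving out day 7 replicate 2, 3 or 4 gave 1753, 1522 and 1530. Day 15 against day 7 gave 1180 without day 15 replicate 1, 1269 without day 15 replicate 2 and 1393 without day 7 replicate 2. Day 3 replicate 2 lay among the day 1 tumors in a plot of distances between tumors, and without it day 3 against day 1 gave 256 calls, against 2 or 3 without day 3 replicate 1 or 4, day 7 replicate 4, day 15 replicate 3 or day 23 replicate 3. The single call between days 7 and 3 became 7 without day 1 replicate 2, 2 without day 7 replicate 5, and 3, 14 and 38 without day 23 replicates 1, 2 and 3, and none was left without day 7 replicate 4. The 25 calls between days 23 and 15 became 330 without day 23 replicate 3, 56 without day 3 replicate 2, 48 without day 7 replicate 4 and 43 without day 7 replicate 2. They became 1 without day 15 replicate 2, 6 and 7 without day 23 replicates 2 and 1, 8 to 11 without any one of the day 1 tumors or day 3 replicates 1 and 5, 12 without day 3 replicate 4, day 7 replicate 3 or day 15 replicate 1, 14 without day 15 replicate 3 and 15 without day 7 replicate 5. Scaling by 14 housekeeping genes in place of TMM moved the median of all genes by -0.15 (log2) for day 23 against day 1, by -0.18 for day 7 against day 1 and by 0.12 for day 15 against day 7, and gave 2315 higher and 4039 lower, 740 and 1732, and 401 and 871 genes. Directions below hold under both scalings unless the sentence says otherwise.

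**Figure D1:**
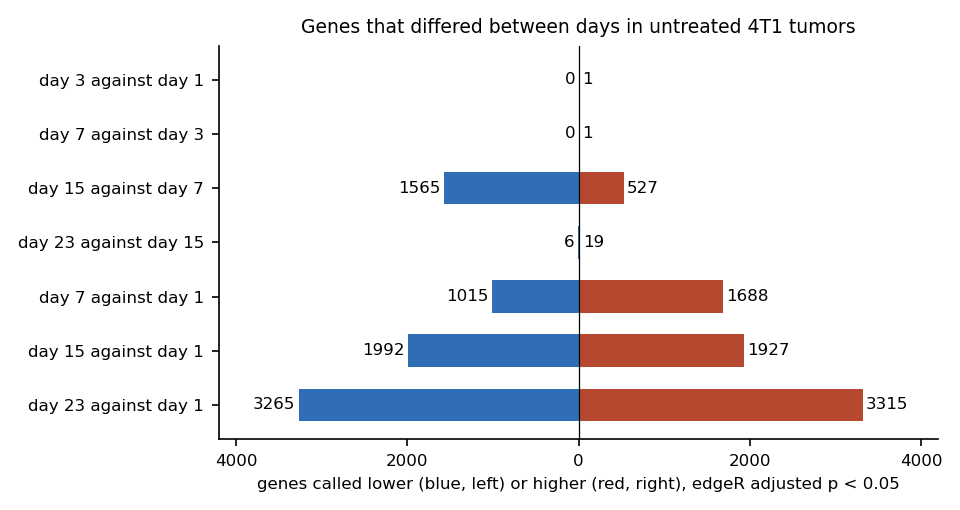
Number of genes called higher and lower (edgeR, adjusted p under 0.05, 23203 genes tested) for each comparison of 2 days among the 20 untreated tumors. Day 23 against day 1 has 3315 higher and 3265 lower genes, while day 3 against day 1 and day 7 against day 3 have 1 each.

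Transcripts of dividing cells were lower on day 23. Of 22 genes of DNA replication and S phase, 12 fell from day 1 to day 23 and none rose (median log2 difference -0.63), and of 22 genes of G2 phase and mitosis, 15 fell and none rose (median -0.86). The background was 14.1% of genes called lower, 14.3% called higher and a median of -0.10 over all genes. On day 7 and on day 15 against day 1 edgeR called 0 of either list, as did DESeq2, with mitosis medians of -0.28 and -0.39 (background 7.27% higher and 4.37% lower on day 7). At an unadjusted p under 0.05, 1 of each list was lower on day 7, and 1 replication and 3 mitosis genes on day 15. Mki67, the gene of the proliferation antigen Ki-67 (chromosome 7, 135689784 to 135716450, GRCm38.p6), read 519, 678, 480 and 562 CPM at day 1, 565, 569, 456, 558 and 447 at day 3, 362, 412, 406, 331 and 481 at day 7, 568, 571 and 324 at day 15, and 128, 305 and 397 at day 23. The 3 tumors of day 23 lay below all day 1 tumors, and their own levels were far apart. The log2 difference was -1.01 (SE 0.28, adjusted p = 0.011). Rrm2, a subunit of the enzyme that makes deoxynucleotides, fell by 1.57 on the log2 scale (SE 0.32, adjusted p = 0.0016), from 126 to 171 CPM on day 1 to 20.4, 53.2 and 81.7 CPM on day 23. The replication factor Cdc6 fell by 1.23, cyclin E1 (Ccne1) by 1.00, the mitotic transcription factor Foxm1 by 1.20 and the mitotic kinase Plk1 by 1.15. Not every member moved: the helicase subunit Mcm7 differed by 0.15 (adjusted p = 0.54).

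The size of this group of changes rested on the lowest tumor of day 23. Its mitosis genes summed to 714 CPM against 1730 and 2430 CPM in the other two of that day and 2620 to 3220 CPM on day 1. Without day 23 replicate 1, 2 replication genes and 6 mitosis genes were lower, and without replicate 2, 6 and 9. Replication-dependent histones, transcribed in S phase and kept out of most polyadenylated pools, fell in the same comparison: 46 of 64 tested were lower (median -1.24), with 10 lower without day 23 replicate 1, 18 without replicate 2 and 20 without day 1 replicate 1. Histone genes are near copies of each other, and reads they share could have been split between them.

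Genes transcribed in G2 phase and mitosis are known to carry a cell cycle homology region (letters TTTGAA, both strands searched) near their start. The mouse promoter table of RefSeq, from 250 bases before to 50 bases after the listed start, held a window for 18 of the 22 mitosis genes, and 13 of them had the motif (72.2%). It was found in 2 of 17 replication genes (11.8%) and in 20.2% of all 27025 promoters of the table. A match describes letters and is no evidence of binding. The promoter of Mki67 is shown because it holds 2 copies, in capitals, on GRCm38.p6 and read 5′ to 3′ along the gene's strand, with its last base 71 bases before the listed start. This gene and the others whose promoters are shown were picked after the matches were seen.
Mki67 (chr7:135716451-135716580, minus strand): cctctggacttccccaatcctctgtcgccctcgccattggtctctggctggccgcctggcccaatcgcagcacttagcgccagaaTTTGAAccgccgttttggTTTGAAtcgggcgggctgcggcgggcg

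Among 15 cell cycle inhibitors and p53 targets, 3 rose and 4 fell between days 1 and 23 (median 0.10, and -0.06 with 2 higher and 6 lower under housekeeping scaling). The 4 that fell became 1 without day 1 replicate 1 or without any one of the 3 day 23 tumors, and 2 without day 1 replicate 3, day 7 replicate 3 or day 15 replicate 2. Gadd45a, a stress-induced gene that restrains division (chromosome 6, 67035096 to 67037407, GRCm38.p6), read 10.6, 12.7, 11.6 and 8.98 CPM at day 1, 36.2, 10.9, 62.5, 50.5 and 60.1 at day 3, 43.3, 47.8, 49.1, 66.7 and 31.7 at day 7, 64.8, 66 and 101 at day 15, and 277, 151 and 78.4 at day 23. All tumors from day 7 on lay above all tumors of day 1, and on day 3 replicate 2 alone was within the day 1 range. Its log2 difference was 3.94 (SE 0.46, adjusted p = 2e-05) on day 23 and 2.12 (SE 0.41, adjusted p = 0.0037) on day 7 against day 1. Cdkn2a, which encodes p16 and Arf, rose by 1.53 and Cdkn1b (p27) by 0.70, while the p53 target Cdkn1a (p21) fell by 0.80 and Cdkn1c (p57) by 1.09. Without day 23 replicate 3 the Cdkn1a call was lost (-0.57, adjusted p = 0.063).

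Hypoxia genes were already higher on day 7. Of 23 tested, 12 rose from day 1 to day 7 and none fell (median 0.81, against -0.01 over all genes), and 10 rose and 1 fell by day 23 (median 0.81). Under housekeeping scaling 7 rose by day 7. Summed hypoxia CPM were 2280 to 3200 on day 3, above the 1350 to 1940 of day 1. On day 3, 14 of the 23 were higher at an unadjusted edgeR p under 0.05, and none passed the adjusted threshold. Car9, the tumor carbonic anhydrase that exports acid, read 26.4, 35.6, 42.8 and 47.1 CPM at day 1, 83, 67.9, 104, 64.8 and 86.8 at day 3, 80.3, 69.2, 135, 119 and 97.1 at day 7, 46.1, 107 and 113 at day 15, and 85, 64.7 and 55.1 at day 23. All tumors of days 3, 7 and 23 were above all of day 1, and on day 15 replicate 1 was within the day 1 range. Car9 rose by 1.40 on the log2 scale (SE 0.26, adjusted p = 0.0031) by day 7 and by 0.85 (SE 0.28, adjusted p = 0.031) by day 23, where the call was lost under housekeeping scaling (0.68, adjusted p = 0.062) and without day 1 replicate 1, day 1 replicate 2, day 23 replicate 1 or day 23 replicate 2 (0.71, 0.81, 0.69 and 0.92). Adm, the vasodilator adrenomedullin, rose by 1.44 by day 7 and 1.72 by day 23, the lipid droplet gene Hilpda by 1.64 and 1.51, and the mitophagy gene Bnip3 by 1.64 and 1.26. Kdm3a, a histone demethylase induced by low oxygen, read 60.8 to 93.7 CPM on day 1 and 112 to 234 CPM on day 23, and rose by 1.13 (SE 0.20, adjusted p = 0.00063). Vegfa, the vessel growth factor, rose by 0.54 by day 7 and was not among the 10 of day 23.

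Single tumors moved these counts. By day 7 the 12 became 6 without day 1 replicate 1, 2 or 3 or day 7 replicate 3 or 4, and 7 without day 7 replicate 5. By day 23 the 10 became 3 without day 23 replicate 1 and 6 without day 23 replicate 2, day 1 replicate 1 or day 1 replicate 2. None fell in any of them by day 7. Of 15 glycolysis genes, 11 rose by day 7 (median 0.82) and 4 by day 23 (median 0.41, 1 without day 23 replicate 1). Hk2, the hexokinase of many tumors, read 115 to 136 CPM at day 1, 214 to 277 CPM at day 7 and 188 to 331 CPM at day 23, so that neither later day overlapped with day 1. It rose by 0.98 (SE 0.16, adjusted p = 0.0014) by day 7 and by 1.08 (SE 0.18, adjusted p = 0.00027) by day 23. Pgk1 rose by 1.01, Aldoa by 0.93, Gapdh by 0.84 and the lactate exporter Slc16a3 by 1.14 by day 7. Summed glycolysis CPM were 6100 to 6570 on day 1, 8180 to 10600 on day 3 and 8520 to 13500 on day 7. The day 3 tumors thus lay above all day 1 tumors, although on day 3 against day 1 edgeR called 0 of the 15, with 12 higher at an unadjusted p under 0.05 and 4 by DESeq2.

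The core letters of the hypoxia response element, ACGTG or GCGTG on either strand, were in all 19 hypoxia promoters found in the RefSeq table (100%), in 13 of 15 glycolysis promoters (86.7%) and in 46.7% of all promoters. The motif is short and common, and no other property of these promoters was compared. The 130 bases before the listed start of Car9 and Bnip3 on GRCm38.p6 are shown because the pair differ in the number of matches, 1 and 5, in capitals where CACGT and CACGC are the same letters read on the other strand.
Car9 (chr4:43506896-43507025, plus strand): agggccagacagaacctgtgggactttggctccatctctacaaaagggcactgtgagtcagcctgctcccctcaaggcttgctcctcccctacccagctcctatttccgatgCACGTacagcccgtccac
Bnip3 (chr7:138909507-138909636, minus strand): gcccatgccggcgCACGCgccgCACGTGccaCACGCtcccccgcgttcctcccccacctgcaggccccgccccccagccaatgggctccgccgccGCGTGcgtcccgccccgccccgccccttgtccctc

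Of 16 genes of unfolded protein, amino acid and heat stress, 1 rose and 5 fell by day 23, although the median of the list was 0.16 (0.01 under housekeeping scaling). Chac1, a glutathione-degrading enzyme induced by ATF4 (chromosome 2, 119351242 to 119354326, GRCm38.p6), read 21.6, 17.6, 19.7 and 23.8 CPM at day 1, 8.84, 10.1, 5.5, 2.93 and 5.92 at day 3, 2.6, 2.56, 4, 4.45 and 4.04 at day 7, 3, 4.93 and 6.79 at day 15, and 1.12, 1.44 and 2.94 at day 23. No tumor of a later day reached the lowest of day 1. Chac1 fell by 2.55 (SE 0.34, adjusted p = 0.00037) by day 7 and by 3.49 (SE 0.43, adjusted p = 2.7e-05) by day 23. Asns, which makes asparagine, fell by 0.84 and 1.86, and the heat shock gene Hsph1 fell by 1.20 by day 23.

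Vessel genes were lowest on day 15. Of 18 endothelial genes, 15 fell from day 7 to day 15 and none rose (median -1.36; background 6.74% lower and a median of 0.03), and by day 23 4 were lower and 1 higher than on day 1 (median -0.36). Pecam1, the endothelial adhesion molecule CD31, read 110, 97.4, 95.7 and 93.1 CPM at day 1, 90.8, 91.4, 84.3, 111 and 73.6 at day 3, 125, 126, 106, 78.9 and 116 at day 7, 45.4, 39.4 and 43 at day 15, and 72.1, 72.1 and 40 at day 23. The day 15 tumors lay below every tumor of days 1 to 7, and 1 tumor of day 23 was with them. Pecam1 fell by 1.37 (SE 0.19, adjusted p = 0.00036) between days 7 and 15. It was 0.69 lower on day 23 than on day 1 (SE 0.19, adjusted p = 0.011), a call lost without day 23 replicate 3 (-0.42, adjusted p = 0.066). The vascular endothelial growth factor receptor Kdr fell by 1.54, the cadherin Cdh5 by 1.49, the angiopoietin receptor Tek by 2.14 and the apelin receptor Aplnr by 2.65 between days 7 and 15. Plvap, which forms the diaphragms of leaky vessels, read 39.1 to 58.2 CPM at day 7, 13 to 17.9 CPM at day 15 and 17.1 to 23.3 CPM at day 23, all 3 tumors of day 23 being below the 41.8 to 67.3 CPM of day 1. Of the 10 angiogenic ligands, Esm1 and Apln rose by 2.60 and 0.80 between days 1 and 23, and the lymphatic factors Vegfd and Vegfc fell by 2.20 and 1.03.

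Pericytes, fibroblasts and collagens followed the same step. Between days 7 and 15 all 11 pericyte and smooth muscle genes tested fell (median -1.35), as did 10 of 12 fibroblast genes (median -1.72, 6 under housekeeping scaling) and 13 of 19 collagen and matrix genes (median -0.99). The contractile genes Cnn1, Acta2 and Tagln, which had risen by 1.36, 1.13 and 1.30 between days 1 and 7, fell by 2.23, 1.88 and 1.80, and the pericyte gene Rgs5 fell by 2.11. Pi16, a marker of resting connective tissue fibroblasts, read 51.9, 24.9, 34.1 and 34.5 CPM at day 1, 37, 41.3, 35.1, 32.1 and 10.8 at day 3, 73.7, 44.3, 76.8, 43.1 and 33.8 at day 7, 9.59, 10.5 and 8.54 at day 15, and 6.24, 8.04 and 4.79 at day 23. The 6 tumors of the last 2 days lay below the other 14. Pi16 fell by 2.51 (SE 0.39, adjusted p = 0.00074) between days 7 and 15 and was 2.51 lower on day 23 than on day 1 (SE 0.39, adjusted p = 0.00019). Col1a1, the main chain of type I collagen, read 1990 to 4010 CPM at day 7, 753 to 902 CPM at day 15 and 561, 2310 and 1910 CPM at day 23. It fell by 1.77 between days 7 and 15 (SE 0.41, adjusted p = 0.012), and its difference between days 23 and 1 did not pass (-1.06, adjusted p = 0.064).

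By day 23, 8 fibroblast genes were lower than on day 1 and none higher (median -1; 5 lower without day 23 replicate 1), with Clec3b 5.75, Dpt 3.78, decorin (Dcn) 2.04 and Pdgfra 0.91 lower on the log2 scale. In the collagen list 5 were lower and 1 higher (3 lower without day 23 replicate 1, 10 without replicate 2): Col3a1 fell by 1.47 and fibronectin (Fn1) rose by 1.39. The fibroblast genes Dpt, Dcn and Pi16 are also expressed in the connective tissue around muscle and in skin and fat, and their part in the result was not tested. Summed fat genes were lower in every tumor of day 23 than in every tumor of day 1, while muscle genes were within the day 1 range in day 23 replicate 3 (2780 CPM) and skin genes in day 23 replicate 1 (153 CPM). The skeletal muscle list itself had 0 of 18 members called between days 1 and 23 (edgeR; median -2.12; 1 lower at an unadjusted p under 0.05 and 1 by DESeq2). Matrix proteases rose early: 8 of 17 were higher on day 7 than on day 1 and none lower (median 0.46; 5 under housekeeping scaling and 5 without day 1 replicate 2). Mmp13, a collagenase, read 82 to 198 CPM at day 1, 309 to 858 CPM at day 7 and 230 to 377 CPM at day 23, and rose by 1.76 by day 7 (SE 0.29, adjusted p = 0.0015). Its call on day 23 (1.02, adjusted p = 0.02) was lost without day 1 replicate 1 or day 23 replicate 2 (0.84 and 0.77). Mmp3, Mmp9 and Mmp12 rose by 1.48, 1.47 and 1.32 by day 7, while Mmp2, mostly a fibroblast product, fell by 1.56 between days 7 and 15.

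**Figure D2:**
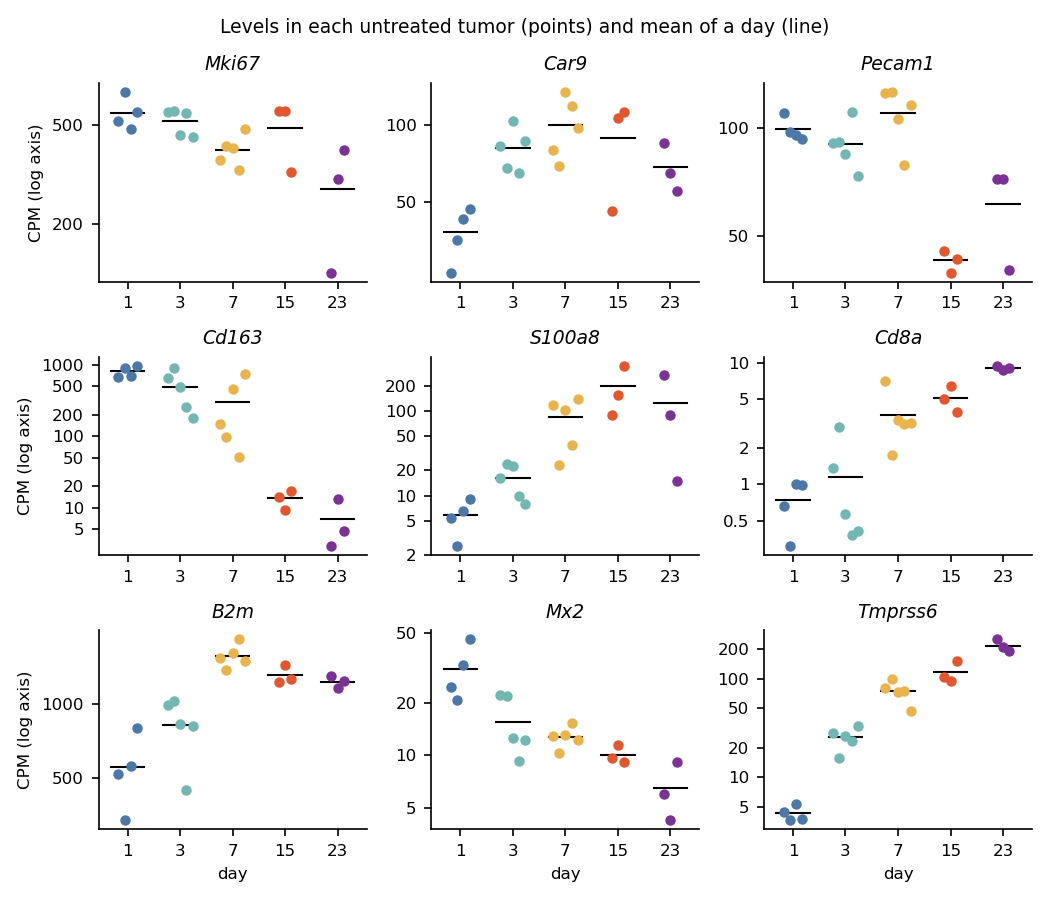
CPM (log axis) of 9 genes in each of the 20 untreated tumors by day, each point 1 tumor and each bar the mean of a day. The day means of Tmprss6 increase from each day to the next, Pecam1 is lowest on day 15, Cd163 lies at 684 to 973 on day 1 and 2.89 to 13.3 on day 23, and Mki67 is below the day 1 tumors on day 23.

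Some epithelial genes of the tumor cells were higher on day 23, and others were not. Of 14, 7 rose and 1 fell between days 1 and 23 (median 0.37; 6 and 3 under housekeeping scaling), with 4 higher without day 1 replicate 3 or day 23 replicate 2 and 3 higher without day 23 replicate 1. Epcam, the epithelial adhesion molecule, read 249, 254, 249 and 258 CPM at day 1, 240, 218, 354, 298 and 395 at day 3, 193, 374, 386, 540 and 314 at day 7, 404, 294 and 587 at day 15, and 781, 643 and 485 at day 23. All tumors of day 23 and of day 15 were above all of day 1. Epcam rose by 1.33 by day 23 (SE 0.28, adjusted p = 0.002). Cldn4, Muc1, Elf3 and Krt7 rose by 1.40, 1.27, 1.16 and 1.07, while the tight junction gene Cldn7 fell by 1.88, from 34.4 to 47.5 CPM on day 1 to 3.97, 16.6 and 13.1 CPM on day 23. Krt8 did not pass (0.06, SE 0.23, adjusted p = 0.87), and its sign turned under housekeeping scaling (-0.09) and without day 23 replicate 1 (-0.04). Of 9 transcription factors and adhesion genes of epithelial-mesenchymal transition, Snai2, Twist2, Zeb2 and Prrx1 fell by 1.27, 1.24, 1.03 and 0.77 and Twist1 rose by 0.81. The 4 that fell became 2 without day 23 replicate 1 or replicate 3. Several of these genes are expressed by fibroblasts as well, whose markers were lower in the same tumors.

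Among the macrophage genes more fell than rose. Of 21, 3 rose and 7 fell between days 1 and 23 (median -0.33; background 14.3% higher and 14.1% lower). The number that rose was thus near the share of all genes. Those that fell mark tissue-resident macrophages: the scavenger receptor Cd163 by 6.88, the folate receptor Folr2 by 4.14, the mannose receptor Mrc1 by 3.28, Timd4 by 2.51, Lyve1 by 1.46, Siglec1 (CD169) by 1.37 and Mertk by 0.47. Those that rose were Spp1 (osteopontin) and Nos2, the inducible nitric oxide synthase, by 1.52 each, and Apoe by 1.28. Cd163 (chromosome 6, 124304636 to 124330529, GRCm38.p6) read 684, 910, 702 and 973 CPM at day 1, 656, 897, 493, 260 and 183 at day 3, 151, 98.1, 454, 50.7 and 753 at day 7, 14.1, 9.4 and 17 at day 15, and 2.89, 13.3 and 4.69 at day 23. Days 15 and 23 did not overlap with any earlier day, and on day 7 the tumors spread from 50.7 to 753 CPM. The log2 difference between days 23 and 1 was -6.88 (SE 0.97, adjusted p = 8.5e-05), and between days 15 and 7 it was -4.48 (SE 0.85, adjusted p = 0.0028). Mrc1 read 829 to 1370 CPM on day 1 and 76.6 to 125 CPM on day 23. Summed fat genes were lower in every tumor of day 23 than in every tumor of day 1. Muscle genes were within the day 1 range in day 23 replicate 3, and skin genes in day 23 replicate 1. The part of tissue around the tumor in the fall of these macrophage genes was not tested.

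The steps between days were counted over the same 21 genes, those of resident macrophages included. Between days 1 and 7, 7 of 21 rose and none fell (median 0.38; 4 higher and 1 lower under housekeeping scaling, 4 higher without day 1 replicate 2, 3 or 4), with Nos2 2.41, Spp1 1.40, Apoe 1.19 and the complement genes C1qa, C1qc and C1qb 0.80, 0.65 and 0.64 higher. Between days 7 and 15, 14 fell and none rose (median -1.17). Adgre1, the gene of F4/80, read 68.4, 53.3, 61.8 and 67.2 CPM at day 1, 48.3 to 84.3 CPM at day 7, 22, 28.2 and 26.6 CPM at day 15 and 53.8, 45.1 and 42.5 CPM at day 23. The 3 tumors of day 15 lay below all of the other days given, and day 23 replicate 1 was within the ranges of days 1 and 7. Adgre1 fell by 1.40 between days 7 and 15 (SE 0.17, adjusted p = 0.00023) and was 0.88 higher on day 23 than on day 15, just outside the threshold (SE 0.18, adjusted p = 0.055). The receptor for colony-stimulating factor 1, Csf1r, fell by 1.21 and Arg1 by 1.18 between days 7 and 15. Among 8 monocyte genes, 5 fell in this step (median -1.49; 2 under housekeeping scaling, 3 without day 15 replicate 1 or replicate 3), Chil3 by 2.24 and the chemokine receptor Ccr2 by 1.42. The fractalkine receptor Cx3cr1 rose by 2.17 between days 1 and 23, a call lost without day 1 replicate 4 (2.04, adjusted p = 0.053).

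Neutrophil genes rose by day 7 and stayed higher. Of 21, 13 were higher on day 7 than on day 1 (median 1.62), 15 on day 15 (median 2.22; background 8.3% higher) and 11 on day 23 (median 1.22), and none was lower on any of the 3 days. S100a8, a calprotectin subunit that fills the cytoplasm of neutrophils, read 5.44, 2.51, 6.59 and 9.15 CPM at day 1, 16, 23.7, 22.3, 9.91 and 7.95 at day 3, 117, 23.1, 104, 39.5 and 138 at day 7, 89.3, 155 and 343 at day 15, and 268, 89.8 and 15 at day 23. From day 7 on all tumors lay above all of day 1, and the spread within days was wide. The log2 difference from day 1 was 3.83 (SE 0.74, adjusted p = 0.0038) on day 7, 5.05 (SE 0.81, adjusted p = 0.00057) on day 15 and 4.39 (SE 0.79, adjusted p = 0.00059) on day 23. Genes of neutrophil granule proteins rose as well: Ltf (lactoferrin) read 0.178 to 0.452 CPM on day 1 and 4.09 to 11.1 CPM on day 23 (4.33 higher, SE 0.56, adjusted p = 4.5e-05), and Ngp and Camp were 5.66 and 3.27 higher. Ly6g, the defining surface marker, was 4.22 higher on day 23 at levels of 0.186 to 1.32 CPM.

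Of 18 myeloid cytokines and chemokines, 6 rose by day 7 and none fell (median 0.62; 3 without day 1 replicate 2 or 3). Csf3, which encodes granulocyte colony-stimulating factor, read 31.7, 26.1, 24.1 and 23.6 CPM at day 1, 22.3 to 44.8 CPM at day 3, 73.2, 27.4, 78.9, 73.9 and 74.3 CPM at day 7, 32.5, 77.4 and 69.7 CPM at day 15 and 49, 44.3 and 21 CPM at day 23. On day 7 replicate 2 was within the day 1 range and the other 4 were above it. Csf3 rose by 1.31 by day 7 (SE 0.31, adjusted p = 0.013) and did not pass on day 23 (0.53, adjusted p = 0.26). The neutrophil chemokines Cxcl2 and Cxcl1 rose by 3.20 and 1.40 and Il1b by 1.68 by day 7. By day 23, 2 were higher and 5 lower (median 0.05, and -0.11 under housekeeping scaling): Cxcl2 and Cxcl1 were 3.21 and 1.42 higher, and Il6, the monocyte chemokines Ccl7, Ccl2 and Ccl12, and Il11 were 2.83, 2.74, 1.57, 0.77 and 1.33 lower.

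**Figure D3:**
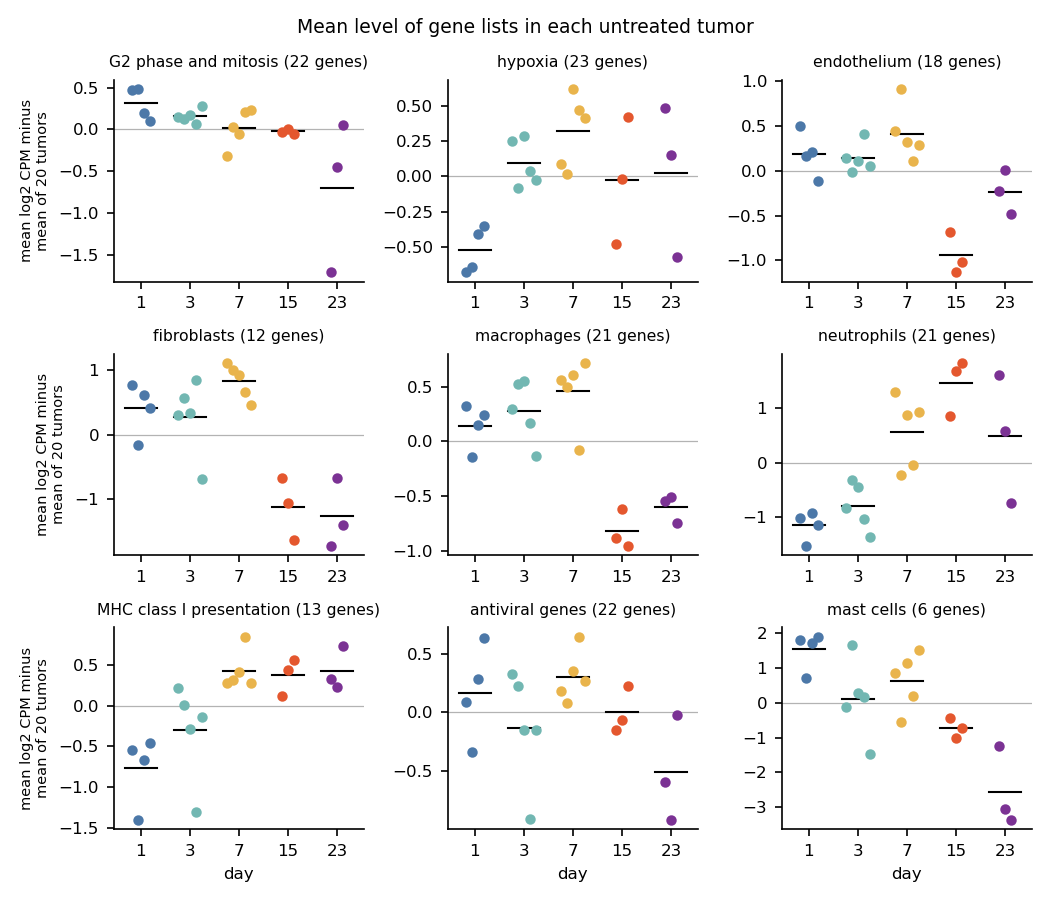
Mean log2 CPM of 9 gene lists in each of the 20 untreated tumors, relative to the mean of all 20, by day; each point is 1 tumor and each bar the mean of a day. Endothelium, fibroblast and macrophage lists are lowest on day 15 or 23, neutrophils rise from day 7, and the mitosis list is lowest in 1 tumor of day 23.

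Cd8a and Cd8b1 rose while Cd4 and Foxp3 fell. Of 21 T cell genes, 2 rose and 5 fell between days 1 and 23 (median -0.61; 3 lower without day 1 replicate 4, day 23 replicate 2 or day 23 replicate 3). The background was 14.3% higher and 14.1% lower. The number that rose was below that share, and the 3 lower without single tumors were near it. Cd8a read 0.664, 0.309, 1 and 0.992 CPM at day 1, 1.37, 2.96, 0.574, 0.384 and 0.41 at day 3, 7.02, 1.74, 3.41, 3.12 and 3.18 at day 7, 5.08, 6.49 and 3.94 at day 15, and 9.45, 8.78 and 9 at day 23. The day 23 tumors were close together and above all the others, and no tumor from day 7 on overlapped with day 1. Cd8a rose by 2.31 by day 7 (SE 0.56, adjusted p = 0.014) and by 3.61 by day 23 (SE 0.62, adjusted p = 0.00039), and Cd8b1, the other chain, by 2.16 and 3.06. Cd8a is also made by a class of dendritic cells, and the shared T cell receptor gene Cd3e did not pass (-0.39, SE 0.56, adjusted p = 0.64), at 1.87 to 4.37 CPM on day 1 and 2.09 to 2.93 CPM on day 23. Cd4 fell by 2.08, the regulatory T cell factor Foxp3 by 2.13, from 3.68 to 6.76 CPM to 0.999 to 1.19 CPM, the costimulator Icos by 2.89, Cd2 by 1.70 and Thy1 by 0.61. Checkpoint genes also went both ways: Pdcd1 (PD-1) rose by 2.04, and Tigit and Ctla4 fell by 2.23 and 2.01.

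Of 16 NK and cytotoxic genes, 4 rose and none fell between days 1 and 23 (median 0.77; 1 higher and 1 lower under housekeeping scaling), with 2 higher without any of day 1 replicates 1 to 3 or day 23 replicate 3 and 1 without day 23 replicate 1. Prf1 (perforin) read 0.973, 0.499, 1.18 and 1.58 CPM at day 1, 0.512 to 2.34 CPM at day 3, 3 to 7.04 CPM at day 7, 2.6 to 10.9 CPM at day 15 and 6.52, 10.3 and 6.03 CPM at day 23, and was 2.85 higher at day 23 (SE 0.55, adjusted p = 0.00099). Xcl1, Nkg7 and Klrd1 were 2.17, 1.86 and 1.47 higher, and Ifng was 2.07 higher on day 7. Gzmf, a granzyme of killer lymphocytes (chromosome 14, 56205263 to 56211407, GRCm38.p6), had no count in the 4 day 1 tumors and read 0.015, 0.0413, 0.0976, 0 and 0 CPM at day 3, 3.47, 1.63, 0.871, 1.68 and 0.21 at day 7, 4.38, 11.9 and 11.9 at day 15, and 15.7, 23.7 and 5.14 at day 23. Every tumor of day 7 was above every tumor of day 3, and every tumor of day 15 above every tumor of day 7. With 3276 counts over the 3 tumors of day 23, and a floor of 3 counts over the day 1 group, it was at least 1450-fold higher (adjusted p = 2.3e-05). Its neighbour Gzmg (chromosome 14, 56156581 to 56159579) had 3 counts on day 1 and 2498 on day 23, a ratio of 1110 (95% counting interval 378 to 5370). The granzymes of this cluster are near copies of each other, and reads they share could have been split between them. The step of Gzmf between days 7 and 15 (2.59, adjusted p = 0.031) was lost without day 7 replicate 2 or 3 or day 15 replicate 2 or 3 (2.61, 2.46, 2.44 and 2.36) and under housekeeping scaling (2.60, adjusted p = 0.05).

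Among 13 dendritic cell genes, 2 rose and 6 fell between days 1 and 23 (median -0.62). Cd209a, a lectin of monocyte-derived dendritic cells, read 3.98 to 9.41 CPM at day 1, 0.469 to 7.65 CPM at day 3, 1.25 to 5.39 CPM at day 7, 0.126 to 0.231 CPM at day 15 and 0.0575 to 0.114 CPM at day 23. It fell by 6.27 (SE 0.88, adjusted p = 8.4e-05), and days 15 and 23 lay below all earlier tumors; the Cd209 genes are close relatives of each other. The part of tissue around the tumor in this fall was not tested. The plasmacytoid marker Siglech fell by 3.29, Flt3 by 2.75 and the migration receptor Ccr7 by 1.72, while Zbtb46 and Itgax rose by 0.89 and 0.70. Of 12 B and plasma cell genes, Pax5 and Blk fell by 2.49 and 1.84 and none rose.

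Antigen presentation genes rose by day 7 and stayed up. Of 13 class I genes, 11 were higher on day 7 (median 1.18), 10 on day 15 (median 1.17; 6 without day 15 replicate 2 and 4 without replicate 3) and 11 on day 23 (median 1.14). B2m, the light chain of class I, read 520, 340, 562 and 801 CPM at day 1, 986, 1020, 831, 449 and 816 at day 3, 1530, 1360, 1600, 1810 and 1480 at day 7, 1220, 1430 and 1250 at day 15, and 1290, 1150 and 1230 at day 23. All tumors from day 7 on lay above all tumors of days 1 and 3. B2m rose by 1.48 by day 7 (SE 0.23, adjusted p = 0.00092) and was 1.14 above day 1 on day 23 (SE 0.24, adjusted p = 0.0023). H2-K1 and H2-D1, the class I heavy chains, were 1.20 and 1.27 higher on day 23, the immunoproteasome subunits Psmb8 and Psmb9 2.03 and 1.89 higher, and the transporter Tap1 1.14 higher. Of 11 class II genes, 10 were higher on day 7 (median 1.26; 6 under housekeeping scaling, 5 without day 1 replicate 2 and 6 without replicate 3) and 8 on day 23 (median 1.47). H2-Ab1 read 156, 42.2, 101 and 119 CPM at day 1, 172 to 387 CPM at day 7 and 314, 220 and 338 CPM at day 23, with no overlap between either later day and day 1, and was 1.47 higher at day 23 (SE 0.38, adjusted p = 0.007). The class II regulator Ciita was 1.24 and Cd74 1.71 higher.

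Between days 1 and 23 the called targets of interferon gamma rose, while most called antiviral interferon-stimulated genes fell. Summed antiviral CPM were 1010 to 1980 (median 1460) on day 1 and 1690 to 2590 (median 1740) on day 7. On day 23 they were 1000 to 1960 (median 1190), which overlapped with day 1. Of 15 interferon gamma targets, 8 were higher on day 23 and none lower (median 1.16; 5 without day 1 replicate 1 or 2, 2 without day 23 replicate 3), and 8 on day 7 (median 1.42; 4 under housekeeping scaling, 5 without day 1 replicate 1, 4 without day 1 replicate 3, 3 without day 1 replicate 2 or day 7 replicate 4). Of 22 antiviral genes, 12 were lower on day 23 (median -0.84; 7 lower without day 1 replicate 4, 5 without day 23 replicate 1 or 2). In the fit of all groups on days 1 and 23, 12 were lower and 1 was higher in untreated tumors (median -0.83). Gbp4, a guanylate-binding protein, read 50.9, 17.3, 78.8 and 82.5 CPM at day 1, 750, 304, 161, 42.6 and 241 at day 3, 472, 459, 384, 822 and 250 at day 7, 419, 640 and 615 at day 15, and 246, 265 and 786 at day 23. All tumors from day 7 on were above all of day 1. Gbp4 was 2.91 higher on day 23 (SE 0.69, adjusted p = 0.0042), the chemokine Cxcl9 2.35, Irf1 1.16 and Cd274 (PD-L1) 1.24 higher. The Cxcl9 call was lost without day 23 replicate 3 (1.25, adjusted p = 0.22).

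Mx2, an antiviral GTPase, read 24.7, 20.7, 32.6 and 45.9 CPM at day 1, 22, 21.9, 12.5, 9.33 and 12.2 at day 3, 12.9, 10.3, 13, 15.3 and 12.2 at day 7, 9.72, 11.5 and 9.18 at day 15, and 5.98, 4.27 and 9.15 at day 23. From day 7 on no tumor reached the lowest of day 1, and the day 23 tumors were below all the others. Mx2 fell by 2.26 between days 1 and 23 (SE 0.33, adjusted p = 0.00012). Oas2 and Oas3, which sense double-stranded RNA, fell by 1.92 and 1.47, Isg15 by 1.03 and the interferon regulator Irf7 by 0.95. Ifit1 fell by 0.92 (adjusted p = 0.015), a call lost without day 1 replicate 4, day 23 replicate 1 or day 23 replicate 2 (-0.70, -0.94 and -0.70).

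The interferon gamma activated site (TTCNNNGAA, both strands) was in 4 of 11 promoters of interferon gamma targets found in the RefSeq table (36.4%), in 2 of 15 of the antiviral genes (13.3%) and in 9.55% of all promoters. The core of the interferon-stimulated response element (TTTC and TTTC with any 2 bases between them, both strands) was in 8 of 11 (72.7%) and 9 of 15 (60%), against 3.99% of all promoters. Irf1 and Igtp, which rose by 1.16 and 1.74 by day 23, are shown for the first motif, and Ifit1 and Isg15, which fell, for the second, as the 130 bases before the listed start on GRCm38.p6 with matches of that motif in capitals. The Igtp stretch also holds the second motif on the other strand, left in lower case. That motif was more frequent among the interferon gamma targets than among the antiviral genes, so these examples tie no motif to a direction. Matches that overlap run into each other, as the 3 of Isg15 do.
Irf1 (chr11:53769884-53770013, plus strand): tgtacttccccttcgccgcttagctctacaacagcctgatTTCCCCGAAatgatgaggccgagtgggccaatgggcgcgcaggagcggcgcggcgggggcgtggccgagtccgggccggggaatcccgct
Igtp (chr11:58199426-58199555, plus strand): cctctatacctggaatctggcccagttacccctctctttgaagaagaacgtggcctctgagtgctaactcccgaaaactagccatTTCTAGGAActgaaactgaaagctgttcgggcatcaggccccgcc
Ifit1 (chr19:34640759-34640888, plus strand): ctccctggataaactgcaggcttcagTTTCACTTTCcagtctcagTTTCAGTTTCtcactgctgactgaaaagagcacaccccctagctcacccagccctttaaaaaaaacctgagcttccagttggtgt
Isg15 (chr4:156200819-156200948, minus strand): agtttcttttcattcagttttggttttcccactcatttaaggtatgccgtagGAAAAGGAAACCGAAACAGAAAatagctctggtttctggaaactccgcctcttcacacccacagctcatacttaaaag

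**Figure D4:**
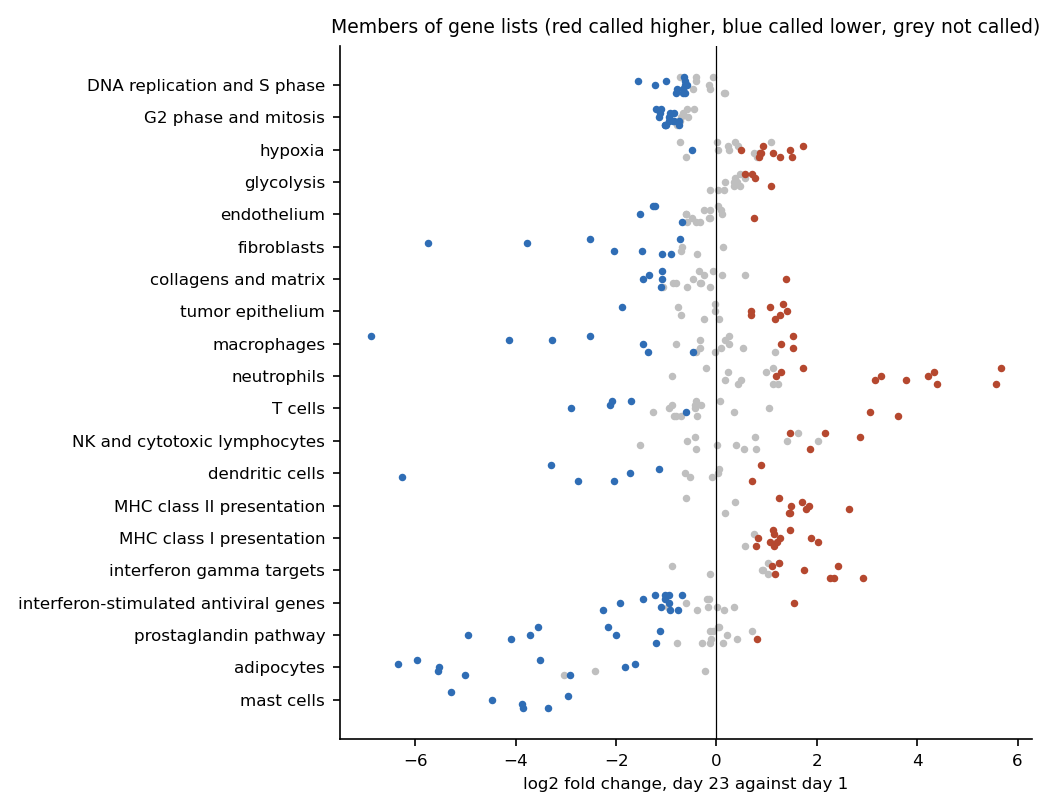
Log2 difference between days 23 and 1 of each tested member of 20 gene lists in untreated tumors, one point per gene, red where edgeR called it higher, blue where called lower and grey otherwise. Class I and class II presentation and neutrophil lists lie mostly above 0, mitosis, antiviral, adipocyte and mast cell lists mostly below, and the macrophage list reaches from -6.88 (Cd163) to 1.52 (Spp1).

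Prostaglandins are made from arachidonic acid by the cyclooxygenases Ptgs1 and Ptgs2 (COX2) and act through receptors on many cells. Of 21 genes of the pathway, 1 rose and 8 fell between days 1 and 23 (median -0.12; 5 lower without day 1 replicate 3 and 4 without day 23 replicate 2). Ptgs2 (chromosome 1, 150100031 to 150108234, GRCm38.p6) read 83.4, 109, 116 and 119 CPM at day 1, 147, 121, 114, 107 and 103 at day 3, 215, 106, 211, 182 and 192 at day 7, 165, 192 and 341 at day 15, and 118, 137 and 39.5 at day 23. The day 15 tumors lay above all tumors of days 1 and 3, and on day 23 replicate 3 was the lowest of the 20. Ptgs2 was 1.12 higher on day 15 than on day 1 (SE 0.32, adjusted p = 0.022) and did not pass on day 23 (-0.12, adjusted p = 0.81), where the sign turned without day 23 replicate 3 (0.29). Ptgs1, the constitutive enzyme, rose by 0.81. The receptors fell: Ptgdr by 4.95, Ptgfr by 4.10, Ptger3 by 3.71, the prostacyclin receptor Ptgir by 2.17 and Ptger4 by 1.13. The degrading enzyme Hpgd fell by 3.55 and the synthases Ptgds and Ptgis by 2.01 and 1.21. Ptgfr read 7.04, 3.14, 8.37 and 7.65 CPM at day 1, 2.35 to 8.38 CPM at day 7, 1.19, 0.464 and 0.429 CPM at day 15 and 0.23, 0.623 and 0.286 CPM at day 23. Its day 15 and day 23 tumors lay below all others. Muscle, skin and fat express several of these receptors, and their summed levels were lower on day 23 than on day 1 in most tumors; their part in the result was not tested.

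Of 16 immunosuppressive mediators, 1 rose and 4 fell between days 1 and 23 (median -0.06). Besides Pdcd1, Tigit and Ctla4 these were Il4ra, the receptor chain for interleukins 4 and 13, which fell by 1.85, and Tgfb1, which fell by 0.58 and lost its call without any 1 of the day 23 tumors (-0.52, -0.61 and -0.51), of day 1 replicates 1 and 2 (-0.40 and -0.55) or of day 15 replicates 1 and 2 (-0.55 each). On day 7 against day 1, 4 were higher, Arg2, Nt5e, Lgals9 and Entpd1, by 1.32, 0.99, 0.57 and 0.49 (2 higher and 1 lower under housekeeping scaling; 1 without day 1 replicate 2 or 4 or day 7 replicate 3, and 2 without day 1 replicate 3 or day 7 replicate 5).

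Mast cell genes fell furthest as a group: 6 of 6 were lower on day 23 than on day 1 (median -3.87). Cma1, a mast cell chymase (chromosome 14, 55941451 to 55944675, GRCm38.p6), read 11.7, 3.71, 8.84 and 8.96 CPM at day 1, 2.62, 8.12, 3.17, 2.9 and 1.02 at day 3, 4.09, 1.97, 5.14, 2.92 and 6.32 at day 7, 1.32, 1.07 and 1.59 at day 15, and 0.719, 0.234 and 0.157 at day 23. Each day 23 tumor was below each of all the other days. Cma1 fell by 4.48 (SE 0.69, adjusted p = 0.00018), the IgE receptor chain Ms4a2 by 5.28 and Cpa3 by 3.86. Of 12 fat cell genes, 9 were lower on day 23 and none higher (median -3.27). Cfd (adipsin) read 40.9, 7.39, 31.2 and 16.3 CPM at day 1, 3.26 to 6.07 CPM at day 7, 0.26 to 1.02 CPM at day 15 and 0.0719, 0 and 0.815 CPM at day 23, and fell by 6.34 (SE 1.3, adjusted p = 0.002). The adipokines Lep and Adipoq fell by 5.97 and 5.01. Mast cells and fat cells are residents of skin and connective tissue. Summed skin genes were below the day 1 range in day 23 replicates 2 and 3 (2.36 and 1.96 CPM) and within it in replicate 1 (153 CPM), and the part of this tissue in the result was not tested.

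Muscle RNA varied widely within days. Ckm, the muscle creatine kinase, read 68.7, 48.2, 145 and 174 CPM at day 1, 118, 151, 175, 719 and 31.3 at day 3, 2.62, 492, 53.8, 747 and 0.173 at day 7, 0.033, 0 and 0.299 at day 15, and 0.0575, 1.05 and 66.3 at day 23. Day 15 alone held no tumor with muscle RNA above 1 CPM of Ckm. Between days 7 and 15, 14 of 18 muscle genes were called lower, and 0 without day 15 replicate 1 or replicate 2 and 6 without replicate 3, at medians of -7.84 with all tumors and -7.68 without replicate 1. Myh4, Atp2a1 and Actn3 were the largest falls of that step (-12.54, -9.47 and -8.38). Of 9 skin genes none was called on day 23 against day 1 (edgeR; median -2.65; 1 lower at an unadjusted p under 0.05 and 1 by DESeq2). Of 7 red cell genes, 5 rose and 1 fell, with none higher without day 23 replicate 1, which held 459 CPM of Hbb-bs against 49.7 and 21.2 CPM in the other 2 of that day and 12.3 to 26.9 CPM on day 1. The Hbb-bs difference of 3.14 (adjusted p = 0.0069) became 0.85 (adjusted p = 0.39) without it.

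Of 75 ribosomal protein genes, 28 rose between days 1 and 23 and none fell (median 0.58; 32 and 2 under housekeeping scaling), with 4 higher without day 23 replicate 1 and 18 without day 1 replicate 2. Of 16 mitochondrially encoded genes, 4 rose (median 0.19; 2 under housekeeping scaling and 2 without day 23 replicate 1), at 2.5% to 6.89% of all counts over the 20 tumors. Of 107 olfactory and vomeronasal receptor genes tested, 25 were higher on day 15 than on day 7 (background 2.27% higher) and 4 without day 15 replicate 1, 49 without day 15 replicate 3 and 12 to 16 without any one of day 7 replicates 2 to 5.

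The gene with the smallest adjusted p was Tmprss6, a liver-type serine protease that lowers hepcidin (chromosome 15, 78439667 to 78468648, GRCm38.p6). It read 4.38, 3.67, 5.28 and 3.78 CPM at day 1, 28.2, 15.8, 26.4, 23.1 and 33.3 at day 3, 80.5, 99.6, 73.7, 74.9 and 47.3 at day 7, 105, 94 and 151 at day 15, and 250, 211 and 189 at day 23. Days 1, 3 and 7 did not overlap, nor did days 15 and 23, while 1 tumor of day 7 reached into day 15. The log2 difference from day 1 was 4.14 (SE 0.25, adjusted p = 2.9e-08) on day 7, 4.77 (SE 0.27, adjusted p = 7.7e-09) on day 15 and 5.66 (SE 0.28, adjusted p = 7.1e-10) on day 23. The step from day 3 to day 7 was lost without day 7 replicate 4 (1.56, adjusted p = 0.051). Cp, the ferroxidase ceruloplasmin (chromosome 3, 19956933 to 20009750), read 34, 38.8, 42.2 and 38.7 CPM at day 1, 158, 47, 252, 279 and 295 at day 3, 316, 292, 161, 189 and 109 at day 7, 267, 249 and 271 at day 15, and 1680, 912 and 597 at day 23. No later tumor overlapped with day 1, and the 3 of day 23 were above all others. Cp rose by 4.79 (SE 0.5, adjusted p = 7.7e-06), and Lcn2, which binds iron-carrying siderophores, by 4.85 (SE 0.54, adjusted p = 1.2e-05), from 8.06 to 14.3 CPM to 632, 266 and 112 CPM.

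The 8 largest rises were Gzmf, Gzmg, Tmprss6, Retnlg, Art2a, Lcn2, Cp and Ibsp, and the 8 largest falls were Mup22, Retnla, Cd163, Cd209e, Cd209d, Slc6a4, Fgf23 and Cfd. The neutrophil resistin Retnlg read 0.199 to 0.321 CPM on day 1 and 23.8, 12 and 1.46 CPM on day 23. Ibsp, a bone matrix sialoprotein, read 0.369 to 1.75 CPM on day 1 and 22.1, 29.3 and 21.1 CPM on day 23. Mup22, a major urinary protein gene with many near copies (chromosome 4, 60817586 to 60821597, GRCm38.p6), had 2070 counts over the day 1 tumors and none on day 23, and was at least 519-fold lower. Retnla, which macrophages make under interleukin 4, read 3.85, 1.9, 10.9 and 25.1 CPM on day 1 and 0.0431, 0.0389 and 0.0143 CPM on day 23. Slc6a4, the serotonin transporter found on platelets and mast cells, read 10.9 to 37 CPM on day 1 and 0.1 to 0.388 CPM on day 23, a log2 difference of -6.45 (SE 1.1, adjusted p = 0.00043).

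Between days 15 and 23 the largest rises were Klhdc7a, Pdgfc and Kitl and the largest falls Lingo3, Areg and Map6. Kitl, the ligand of the KIT receptor (chromosome 10, 100015615 to 100100416, GRCm38.p6), read 36.8, 28.9, 42.9 and 34.6 CPM at day 1, 29.2 to 49.3 CPM at day 3, 30.2 to 56.7 CPM at day 7, 40.1, 38.6 and 42.7 CPM at day 15, and 235, 149 and 97.1 CPM at day 23. The 3 tumors of day 23 stood above the other 17. Kitl rose by 1.99 in this step (SE 0.28, adjusted p = 0.0083), a call lost without day 15 replicate 2 (1.97, adjusted p = 0.084). Pdgfc, a platelet-derived growth factor, read 14.7, 18.6 and 19 CPM on day 15 and 124, 82 and 42.2 CPM on day 23, and rose by 2.25 (SE 0.27, adjusted p = 0.0021). Areg (amphiregulin), a ligand of the epidermal growth factor receptor, read 21.9, 40.6 and 39.4 CPM on day 15 and 10.3, 15.8 and 9.19 CPM on day 23, and fell by 1.53 (SE 0.28, adjusted p = 0.044). Its call was lost under 16 of the alternatives tried, most of them with 1 tumor left out, and those of Klhdc7a, Lingo3 and Map6 under 15, 17 and 15. Between days 7 and 15 the largest rises were Gzmf, the vault RNA Vaultrc5 and the protocadherin Pcdhb18, which read 3.91 to 5.45 CPM at day 7, 12.9, 9.21 and 14.6 CPM at day 15 and 33.5, 21.9 and 16.2 CPM at day 23, and rose by 1.42 (SE 0.23, adjusted p = 0.00088) in that step.

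Where the untreated course differed from the treated ones was tested as the difference between 2 changes from day 1 to day 23, treated minus untreated, in 1 edgeR fit of all tumors of these 2 days (24950 genes). The 3 tests share the untreated tumors. For 6 Gy 166 genes were higher and 101 lower (0.665% and 0.405%), for INDO 353 and 94 (1.41% and 0.377%) and for 6 Gy + INDO 1671 and 1370 (6.7% and 5.49%), or 1.07%, 1.79% and 12.2% of the genes in all. The 3 treated tumors with over 300 CPM of receptor reads were all in the INDO or 6 Gy + INDO groups, and without them 262, 417 and 1613 genes were called, with 955 higher and 658 lower in the last. Under housekeeping scaling the split was 220 and 20 for 6 Gy and 2388 and 495 for 6 Gy + INDO, with the median of all genes shifted by 0.24 and 0.30. Single tumors moved these counts too. The 267 calls for 6 Gy became 731, 762, 114, 98 and 158 without 6 Gy day 1 replicates 1 to 5, 116 and 778 without 6 Gy day 23 replicates 4 and 5, 87, 177, 143 and 87 without the untreated day 1 tumors and 79, 53 and 155 without those of day 23. The 447 for INDO became 282, 285 and 258 without untreated day 1 replicates 1, 3 and 4, 202 and 277 without untreated day 23 replicates 2 and 3, and 758 without INDO day 23 replicate 2. The 3041 for both became 2012 without 6 Gy + INDO day 1 replicate 1, 2009 without untreated day 1 replicate 4, and 1413 and 1588 without untreated day 23 replicates 1 and 2.

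Cd163 fell further in untreated tumors than in those given INDO or 6 Gy + INDO. Its mean went from 798 ± 140 CPM (SD, n = 4) on day 1 to 6.85 ± 5.5 CPM (SD, n = 3) on day 23 without treatment, and from 41.7 ± 22.1 to 7.82 ± 4.93 CPM with INDO, a difference of changes of 4.45 (SE 1.02, adjusted p = 0.013, lost without control day 23 replicate 1 or 3 at 4.06 and 4.21). With 6 Gy + INDO it went from 39.5 ± 17.9 to 14.2 ± 13 CPM (5.38, SE 1.04, adjusted p = 0.0014), and with 6 Gy from 97.9 ± 94.2 to 6.48 ± 3.89 CPM (2.94, SE 0.99, adjusted p = 0.13). The day 23 means were thus close to each other and the day 1 means far apart. Car4, a carbonic anhydrase of capillaries and muscle, showed the same arrangement: 22.3 CPM on day 1 and 1.2 CPM on day 23 without treatment, against 1.76 and 1.51 CPM with 6 Gy (4.00, SE 0.75, adjusted p = 0.0056). Gadd45a rose more without treatment, from 10.7 to 166 CPM, than with 6 Gy + INDO, from 33.9 to 59 CPM (-3.15, SE 0.52, adjusted p = 0.0003), and so did Ibsp, from 0.964 to 23.8 CPM against 3.92 to 6.56 CPM (-3.88, SE 0.92, adjusted p = 0.007).

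Of 21 T cell genes, 15 were higher in the 6 Gy + INDO change than in the untreated one and none lower (17 without the tumors high in receptor reads), and their median change was -0.60 without treatment and 1.51 with both. Cd3e went from 3.2 to 2.45 CPM without treatment and from 0.303 to 2.89 CPM with both (3.64, SE 0.83, adjusted p = 0.005). Its day 1 means were thus far apart and its day 23 means close, as those of Cd163 were. A difference of changes alone does not show whether the groups differed on day 1 or on day 23. Mast cell genes, which had a median of -3.86 without treatment, had one of -0.03 with both, and 6 of 6 were called in the difference; for fat genes 6 of 12 were. The 6 mast cell genes became 3 without 6 Gy + INDO day 23 replicate 4 or untreated day 1 replicate 4 and 2 without untreated day 23 replicate 2 or 3, and the 6 fat genes became 1 and 2 without untreated day 23 replicates 1 and 2. Without the tumors high in receptor reads 3 mast cell genes and 2 fat genes were called. Mitosis genes fell in every group, with medians of -0.85 without treatment, -1.09 with 6 Gy, -0.62 with INDO and -1.11 with both. Ribosomal protein genes had 42 of 75 lower in the 6 Gy + INDO difference (median -1.14), and 0 without the receptor-high tumors (median -0.92). Leaving out single tumors gave 1 to 26 of them.

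**Figure D5:**
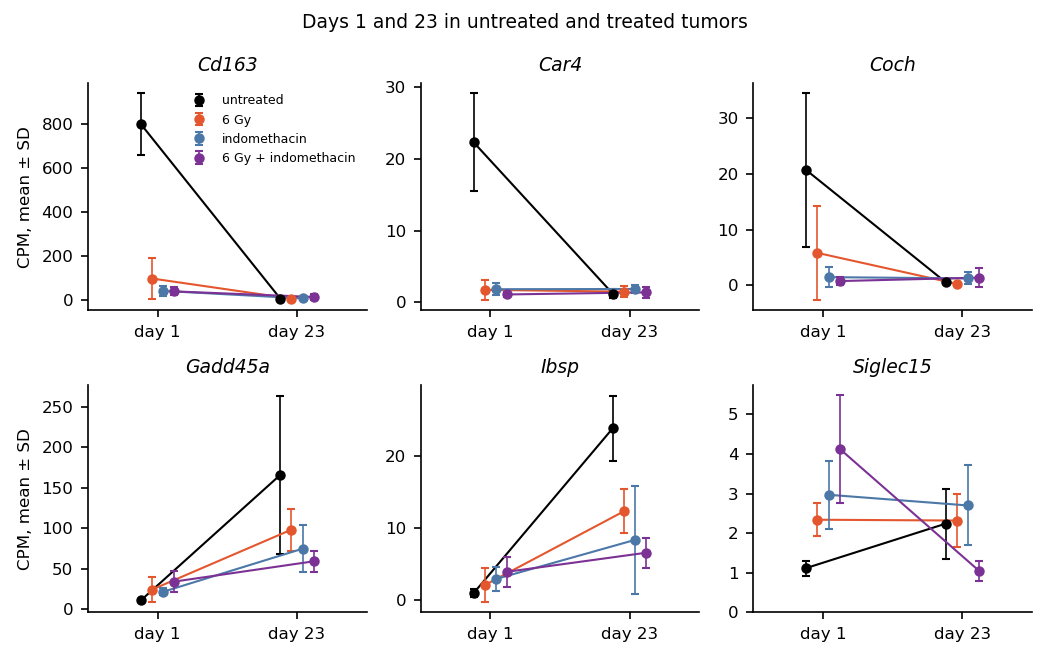
Mean CPM (linear axis; error bars are SD, lines join the 2 days of a group) of 6 genes on days 1 and 23 in untreated tumors and in those given 6 Gy, INDO or both. Cd163 means lie at 798 (untreated) and 39.5 to 97.9 (treated) on day 1 and at 6.48 to 14.2 on day 23.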

How the data were processed

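Total RNA of each tumor was sequenced as 1 stranded, paired-end library. The authors deposited 1 table of expected counts per gene, with 49080 genes in each of the 94 tumors. The submitters' processing notes name cutadapt, STAR, Partek 11.0.24.0328 and mm10, and of the tool and annotation behind the counts nothing is given in the sources used here. These expected counts, as deposited, were rounded to whole numbers. Expected counts can split reads between similar genes, so that near copies are uncertain.

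The 20 control tumors were fitted together in edgeR 4.0.16 (R 4.3.3, limma 3.58.1) with day as the factor, genes kept by filterByExpr (23203), TMM library sizes and the quasi-likelihood test. Standard errors of log2 differences are their size divided by the square root of F. The study itself scaled to housekeeping genes, used the gene-specific analysis of Partek, which was not run here, and set limits of 2-fold and an unadjusted p under 0.05. Housekeeping scaling (14 genes) and those limits were run as alternatives, as were DESeq2 1.42.0 and its size factors (RLE), keeping all genes with low counts, fitting the 94 tumors together, a block for the replicate number, tables without structural, mitochondrial and receptor genes, and each tumor left out in turn. Changes from day 1 to day 23 were compared between treatments in 1 fit of the tumors of both days (24950 genes). Log2 CPM in plots have a prior count of 2. A fold against a group at 0 uses a floor of 3 counts over the group, and 95% counting intervals cover counting error only. The edgeR fit was tested on simulated counts.

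The members and the 42 gene lists were chosen with earlier results of these data known. The text names the first member of each list and its called member of smallest p, the 8 largest called changes each way between days 23 and 1, and the 3 largest each way for each neighbouring pair of days and each difference between treatments. The largest changes need a mean log2 CPM of at least 1, a symbol that is not a gene model number and, between days, groups that do not overlap. Every other gene named was chosen after its values were seen. Promoters come from RefSeq (GRCm38.p6). Some members of the lists are counted in them and not reported here by name.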

Additional observations from a re-analysis of the deposited data

Results flagged for a closer look

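A gap test (Dixon's, at 95%) was run on the levels of 38 named genes in each tumor, on the days with 4 or 5 tumors. Some of these levels are given above only as ranges or not at all. It picked out 6 of 114 groups, and chance picks about 1 in 20. On day 3 the Rrm2 level of replicate 4 was the lowest of its day (75.4 CPM), as was the Mmp13 level of replicate 2 (168 CPM), and the Ckm level of replicate 4 was the highest (719 CPM). On day 7, Mmp13 was highest in replicate 4 (858 CPM), Csf3 lowest in replicate 2 (27.4 CPM) and Ptgfr highest in replicate 1 (8.38 CPM).

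The change from day 1 to day 23 in untreated tumors differed from that with 6 Gy in 267 genes, with INDO in 447 and with both in 3041 (edgeR, adjusted p under 0.05). For 6 Gy the largest differences above the untreated change were Car4 (4.00), the acute phase protein Saa3 (3.72) and the metalloreductase Steap4 (3.69). Saa3 went from 11.3 to 7.31 CPM without treatment and from 1.02 to 8.76 CPM with 6 Gy, and Steap4 from 24 to 11 CPM and from 3.66 to 21.6 CPM. The largest below it were Cth, an enzyme that makes cysteine (-1.86), Slc22a29 (-1.54) and the p53 target Trp53inp1 (-1.49). Cth went from 4.27 to 22 CPM without treatment and from 8.3 to 11.8 CPM with 6 Gy. The calls of Cth, Slc22a29, Trp53inp1 and Saa3 were lost under 15, 13, 15 and 10 alternatives, mostly with 1 tumor left out, and that of Steap4 under 4.

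For INDO the largest differences above were Prl2c2, a proliferin (5.77), the lectin Cd209e (5.67) and Cd163 (4.45), and those below were the potassium channel Kcnj10 (-2.70), Clstn2 (-2.65) and Papln (-2.55). Cd209e went from 16.5 to 0.147 CPM without treatment and from 0.516 to 0.239 CPM with INDO. The Prl2c2 call for INDO was lost under 15 alternatives. For 6 Gy + INDO they were Prl2c2 (6.62), Cd209e (6.36) and Coch (6.02) above, and Ibsp (-3.88), Gadd45a (-3.15) and the sialic acid lectin Siglec15 (-2.98) below. Coch went from 20.7 to 0.563 CPM without treatment and from 0.754 to 1.37 CPM with both, so that its day 1 levels were far apart, as those of Cd163 were.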

How the results depend on the processing

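Housekeeping scaling gave 2 calls for day 3 against day 1, 1272 for day 15 against day 7 and 9 for day 23 against day 15. It also gave 1389 higher and 2221 lower genes for day 15 against day 1 and 6 higher and 3 lower for day 23 against day 15. It turned the sign of 4 uncalled differences between days 23 and 1, those of Hspa5 (-0.01), Angpt2 (-0.03), Krt8 (-0.09) and Actb (-0.03). DESeq2 gave 338 for day 3 against day 1, 199 for day 7 against day 3, 3147 for day 15 against day 7 and 638 for day 23 against day 15, and 906 and 882 for the differences of 6 Gy and INDO from the untreated change. Without the filter on low counts there were 2 for day 3 against day 1, 19 for day 7 against day 3 and 110 for 6 Gy. With all 94 tumors in 1 fit there were 17 and 0 for the steps to days 3 and 7, 3287 for day 15 against day 7 (1792 higher and 1495 lower), 66 for day 23 against day 15 and 250 for INDO. The study's limits gave 4073 for day 23 against day 1, 592 for day 3 against day 1, 754 for day 7 against day 3 and 1453 for day 23 against day 15. Without the tumors high in receptor reads, a setting chosen after seeing the data, 1613 were left for 6 Gy + INDO. The cause of these moves was not tested. With 1 tumor left out at a time, calls ranged from 3881 to 6944 for day 23 against day 1, 2424 to 4121 and 1254 to 3227 for days 15 and 7 against day 1, 1 to 256 for day 3 against day 1, 0 to 38 for day 7 against day 3, 1180 to 3032 for day 15 against day 7, 1 to 330 for day 23 against day 15, 4683 to 6993 for any difference between days, and 53 to 778, 202 to 758 and 1413 to 3347 for 6 Gy, INDO and both. The differences between days 23 and 1 ranged over -0.15 to 0.39 for Angpt2, -0.04 to 0.24 for Krt8 and -0.41 to 0.29 for Ptgs2, with the sign turned without day 23 replicate 1 (the first 2) or replicate 3 (Ptgs2), and none of the 3 was called. Of the values of named genes under all alternatives, 2849 kept their direction and side of the threshold, 212 lost their call, 10 gained one and 7 changed sign.

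The replicate numbers did not pair the tumors. Deviations from the day means correlated at -0.47 to 0.392 over the 34 pairs with the same number (median 0.00249, 11 over 0.1), and at a median of 0.00271 over the 124 pairs with other numbers. A replicate block gave 1341 calls for day 7 against day 1, 0 for day 7 against day 3, 1346 for day 15 against day 7, 2 for day 23 against day 15 and 163 for 6 Gy. No 2 tumors had identical columns. With 3 tumors on each of days 15 and 23, and depths of 29355714 to 96476191 counts, genes of a few counts have wide errors.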

Other observations

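Immediate early genes, which cells switch on within minutes of growth factor or stress signals, had 1 of 11 members higher and 1 lower on day 23 than on day 1 (median -0.11). Egr1 read 55.4, 58.9, 59.2 and 78.2 CPM on day 1, 14.4 to 45.3 CPM on day 3, 10.8 to 19.7 CPM on day 7, 17.5 to 26.3 CPM on day 15 and 15.4, 33.7 and 18.1 CPM on day 23. No tumor of a later day reached the lowest of day 1, and Egr1 was 1.94 lower on day 7 (adjusted p = 0.00067) and 1.49 lower on day 23 (edgeR, adjusted p = 0.0028). Fos rose by 1.75 by day 23, from 13.1 to 16.3 CPM to 55.2, 77.3 and 8.8 CPM, a call lost without day 23 replicate 2 (1.23, adjusted p = 0.083).

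Of 77 nuclear genes of the respiratory chain, 14 were higher on day 7 than on day 1 and none lower (median 0.34; 10 higher and 1 lower under housekeeping scaling, and 3 to 9 higher without single tumors of days 1, 7, 15 or 23). On day 23, 7 were higher and 2 lower (median 0.20), and 5 higher and 10 lower under housekeeping scaling. Of 17 matrix proteases and their inhibitors, 3 were higher and 4 lower on day 23 (median 0.11, and -0.05 under housekeeping scaling). Mmp11, a protease of tumor stroma, was 1.25 higher, and Adamts5, Mmp2, Timp1 and Adamts1 were 2.80, 1.35, 1.15 and 0.87 lower. Of 11 pericyte genes, Myh11, Notch3 and Pdgfrb were 0.92, 0.76 and 0.51 lower on day 23, and 0 or 1 of the 3 was called when any of 9 single tumors was left out. None of 8 Schwann cell genes was called between days 1 and 23 (edgeR; median 0.37; 1 higher at an unadjusted p under 0.05 and 1 by DESeq2). Of 88 structural small RNA genes, 6 were higher and 4 lower (median 0.03). The housekeeping genes used for scaling had 3 of 14 higher and 1 lower (median 0.22).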
